A study of Mus musculus with 14 samples.

Results

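Mitochondrial ribosomal proteins are built in the cytosol from nuclear genes and imported, and together with ribosomal RNA transcribed from mitochondrial DNA they form the ribosome of the mitochondrial matrix. That ribosome translates the few proteins still encoded by mitochondrial DNA, all of them subunits of respiratory chain complexes or of ATP synthase, and in liver it supplies an organelle that carries out fatty acid oxidation and ATP production at a high rate. The large subunit (Mrpl genes) joins amino acids and holds the exit tunnel, and the small subunit (Mrps genes) reads the messenger RNA.

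The genes described here are those whose symbol begins with Mrpl or Mrps followed by a number, taken from probe sets that carry exactly 1 gene symbol. There were 77 of them among 19938 genes measured with 1 symbol, 48 Mrpl and 29 Mrps, and for each gene the probe set with the highest mean over the 14 arrays was used. In all 85 probe sets carried such a symbol, since 8 genes had a pair of them, and 1 further probe set was left out because it names Mrpl53 together with Ccdc142. The names do not map onto the subunits without exception. Mrps18a and Mrps30 sit in the large subunit of the mammalian ribosome, and Mrps36 is now known as a subunit of the 2-oxoglutarate dehydrogenase complex of the citric acid cycle. They are kept under their names, as 29 Mrps genes, unless stated.

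Liver RNA came from male C57BL/6 mice 24 weeks old, after 20 weeks on a high-fat diet. The MSC treated mice (HFM, n = 7) received a tail vein injection of GFP-labelled human bone marrow mesenchymal stem cells, and the control mice (HFS, n = 7) received vehicle, named as saline or PBS, with tissue taken 24 h later. No mouse on another diet and no untreated mouse was part of the comparison, so both groups share the high-fat diet. The cells came from 1 human donor, and each array held 1 mouse, so the spread given below is that between animals.

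Values are log2 expression per probe set on an Affymetrix mouse gene array. The level of a probe set also depends on its probes, so levels are not read as relative amounts of different genes. Brightness on the array is used below only to describe signal and to pick other genes measured at like signal. The 8 hepatocyte markers measured had a mean level of 11.97 in HFM and 11.94 in HFS mice, with 5 above 0 in the difference, 3 below and 0 at an unadjusted p under 0.05. Albumin (Alb) was among the lower ones, at -0.09 (SE 0.05), with all 7 HFM mice below the HFS mean and 5 below every HFS mouse. All 12 markers of Kupffer cells and macrophages were higher on average in HFM mice. At an unadjusted p under 0.05, 5 of them were higher (41.7%, where 3.57% of all probe sets were), and 0 passed an adjusted p of 0.05. The mean level of the 12 was 7.11 ± 0.37 (SD, n = 7, range 6.69 to 7.71) against 6.78 ± 0.38 (range 6.43 to 7.47). Of 8 stellate cell markers 6 lay above 0, with a median difference of 0.20, and 2 were higher at that threshold, Col1a2 and Pdgfrb. Their mean level was 6.43 ± 0.16 in HFM (range 6.17 to 6.67) and 6.31 ± 0.10 in HFS mice (range 6.19 to 6.49), with 6 of 7 HFM mice above the HFS mean. Of the other types, 8 of 9 neutrophil markers lay above 0 and 3 of 4 cholangiocyte markers below, with 0 at an unadjusted p under 0.05 in either. At that threshold 1 of 8 T and NK cell markers was higher, 1 of 4 B cell markers was lower and 0 of 7 endothelial markers passed. The part of these cell types in the values below was not tested. In RNA from whole liver, more cells of a type and more RNA per cell cannot be told apart. Correlations between arrays were 0.979 to 0.995, and HFM3 stood lowest in its correlation with the others. No batch, litter or scan date was given in the sources used here.

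Before the values, 5 promoters are shown, because the genes of mitochondrial translation are known as targets of the factors NRF1, GABP (an ETS factor) and YY1, and because several of them lie head to head with another gene. Each run holds 150 bases before and 30 bases from the first transcribed base of the RefSeq annotation, 5′ to 3′ on the strand of the gene, on GRCm38.p6. Capitals mark the NRF1 core CGCATGCG, the ETS core CCGGAAGT or the YY1 core AAGATGGCG, on either strand. Mrps9 had the lowest difference of the members, Mrpl9 and Mrps18a were among the 3 that were higher, and Mrps11 and Mrpl43 share their start region with another gene of mitochondrial translation or DNA copying.
Mrps9, chr1:42851083-42851262, plus strand: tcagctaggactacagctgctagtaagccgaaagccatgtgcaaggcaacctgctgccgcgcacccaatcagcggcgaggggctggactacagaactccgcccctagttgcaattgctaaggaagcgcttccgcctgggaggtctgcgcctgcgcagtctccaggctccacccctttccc
Mrpl9, chr3:94443186-94443365, plus strand: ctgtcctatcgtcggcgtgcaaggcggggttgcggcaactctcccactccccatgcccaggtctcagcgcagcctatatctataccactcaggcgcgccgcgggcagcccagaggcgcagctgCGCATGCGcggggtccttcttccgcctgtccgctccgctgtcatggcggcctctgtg
Mrps18a, chr17:46110854-46111033, plus strand: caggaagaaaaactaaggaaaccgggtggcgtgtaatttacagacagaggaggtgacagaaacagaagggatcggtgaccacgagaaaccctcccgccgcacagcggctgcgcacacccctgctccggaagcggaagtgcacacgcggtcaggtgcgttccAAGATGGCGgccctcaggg
Mrps11, chr7:78782981-78783160, plus strand: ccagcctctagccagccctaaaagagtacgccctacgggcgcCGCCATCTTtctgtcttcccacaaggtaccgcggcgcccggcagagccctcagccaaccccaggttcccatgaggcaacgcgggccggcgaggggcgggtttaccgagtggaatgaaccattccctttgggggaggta
Mrpl43, chr19:45006413-45006592, minus strand: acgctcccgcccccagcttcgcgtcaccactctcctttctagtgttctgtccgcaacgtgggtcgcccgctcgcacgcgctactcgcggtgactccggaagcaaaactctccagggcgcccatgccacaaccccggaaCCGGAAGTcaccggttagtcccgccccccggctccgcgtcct
The Mrpl9 window holds the NRF1 core 27 bases before the start, and the Mrps18a window holds the YY1 core 11 bases after it. In Mrpl43 the ETS core lies 12 bases before the start. In Mrps11 the YY1 core lies on the other strand, 108 bases before the start of Mrps11 and past the start of its partner Mrpl46, which lies 42 bases away. The Mrps9 window holds none of these cores.

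Such cores were found in a larger share of the members than of all promoters. The RefSeq table gives a window of 300 bases for 68 of the 77 members, 250 before the start and 50 from it, and 9 members are not in it. The ETS core was present in 12 of the 68 (17.6%) against 3.89% of all 32851 windows and 5.69% of 17492 protein-coding genes. The NRF1 core was present in 7 (10.3%) against 1.87% and 2.77%, and the YY1 core in 8 (11.8%) against 1.40% and 2.14%. At least 1 of the 3 cores was found in 26 members (38.2%) against 9.96% of protein-coding genes. The member windows were also richer in CG dinucleotides, with a median of 21 per window against 13 for protein-coding genes, and all 3 motifs hold a CG. A match describes letters only, and binding was not measured.

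Many members had a close neighbour on the other strand. Of the 68 members, 25 (36.8%) had the start of a protein-coding gene on the opposite strand within 1000 bases, against 9.61% of protein-coding genes. Mrpl46 and Mrps11, one of each subunit, start 42 bases apart. Mrpl43 lies 116 bases from Twnk, the helicase that copies mitochondrial DNA, and Mrps12 lies 147 bases from Sars2, the mitochondrial seryl-tRNA synthetase. Mrps27 lies 108 bases from Ptcd2, which acts on mitochondrial RNA, and Mrpl47 lies 308 bases from Ndufb5, a subunit of complex I. Of the 24 neighbours that were measured, Mrpl46 and Mrps11 being counted for each other, 0 had an unadjusted p under 0.05. Member and neighbour had differences of the same sign in 11 of the 24 cases, in which the pair of Mrpl46 and Mrps11 enters once from each side. Mrpl46 was 0.11 higher (SE 0.09) and Mrps11 0.04 higher (SE 0.07) in HFM mice, and Twnk was 0.01 higher (SE 0.09) beside 0.07 (SE 0.10) for Mrpl43. The signs differed for Mrpl47 (-0.18) and Ndufb5 (0.04, SE 0.07), and for Mrps27 (0.13) and Ptcd2 (-0.05, SE 0.08).

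Expression of the mitochondrial ribosomal protein genes was nearly level between HFM and HFS livers. Of the 77 members, 4 had an unadjusted limma p under 0.05 (5.19%), against 6.47% of all 23410 probe sets tested. Mrpl9, Mrps36 and Mrps18a were the 3 higher members, where 3.57% of all probe sets were higher, and Mrps9 was the 1 lower member, where 2.9% were lower. No member passed a Benjamini-Hochberg adjusted p of 0.05, the lowest being 0.714, and the share of all probe sets that passed was 0%. In no member did the HFM and HFS mice separate without overlap, which 0.0555% of all probe sets did. The count of 4 changed with single mice. It was 1 without HFS3, 2 without HFM1, HFM2 or HFS2, and 7 without HFM5 or HFM7.

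The differences were small throughout. In 55 of the 77 genes the mean difference was under 0.1 on the log2 scale in either direction, and in 0 was it over 0.2. The standard errors ran from 0.05 to 0.14. The 95% intervals, unadjusted and per gene, all lay within -0.38 to 0.38, so none reached a 1.5-fold change, which is 0.58 on this scale. A 1.2-fold increase (0.26) lay within the interval of 21 genes and a 1.2-fold decrease within that of 10.

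**Figure D1:**
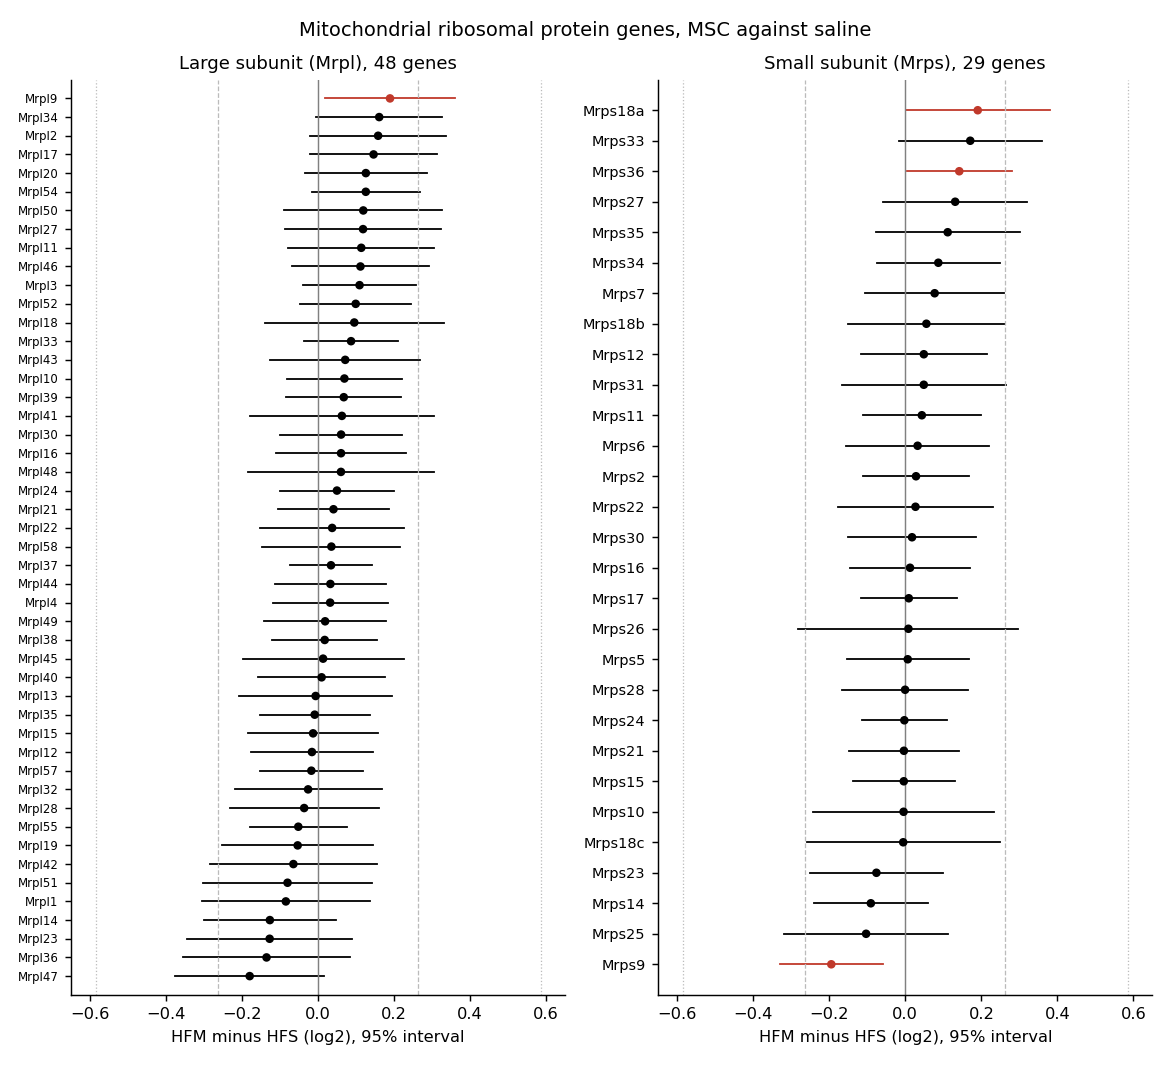
Difference between HFM and HFS livers (x axis, log2) for each of the 48 Mrpl genes (left) and 29 Mrps genes (right), sorted by size. Points are means of 7 against 7 mice, bars are 95% intervals from limma, red marks the 4 genes with an unadjusted p under 0.05, and the grey dashed and dotted lines stand at 1.2-fold and 1.5-fold. No interval reaches the 1.5-fold lines.

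Mrps9 was the member with the lowest difference. It encodes a small subunit protein with a bacterial counterpart, whose tail in bacteria reaches the tRNA in the P site. In HFM mice its level was 6.13 at the lowest, 6.28 at the median and 6.44 at the highest. In HFS mice these were 6.27, 6.46 and 6.59. All 7 HFM mice lay below the HFS mean and 3 of them below every HFS mouse, while HFM1 lay within the HFS range. The difference was -0.19 (SE 0.06), or 1.14-fold lower, with an unadjusted limma p of 0.00718, an adjusted p of 0.714 and an exact permutation p of 0.00874. The unadjusted p stayed between 0.00249 and 0.0194 when each mouse was left out in turn, and the adjusted p was 0.397 to 0.981 over all alternatives tried.

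Mrpl9, a large subunit protein with a bacterial counterpart, was the higher member with the smallest p. Its HFM mice had a lowest level of 6.23, a median of 6.30 and a highest of 6.81. The HFS mice had 6.06, 6.22 and 6.27. HFM3 alone lay far above the rest, and 5 of the 7 HFM mice were above every HFS mouse. The difference was 0.19 (SE 0.08), 1.14-fold, with a limma p of 0.0327, an adjusted p of 0.768 and an exact permutation p of 0.00641. Without HFM3 it was 0.12 with a p of 0.0623, and without HFS2, HFS3 or HFS6 the p was 0.0655, 0.0532 or 0.0642.

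Mrps18a is 1 of 3 paralogues of bacterial S18 and is found in the large subunit, while Mrps18b and Mrps18c belong to the small one. Levels of Mrps18a were 6.51, 6.84 and 7.02 (lowest, median and highest) in HFM mice and 6.42, 6.60 and 6.97 in HFS mice. The ranges overlapped widely, since HFS6 was as high as the upper HFM mice and HFM5 lay among the HFS mice. The difference was 0.19 (SE 0.09, limma p = 0.0485, adjusted p = 0.772, exact permutation p = 0.0717). The p rose above 0.05 when any mouse but HFM5, HFM7 or HFS6 was left out and reached 0.119 after quantile normalization. The paralogues differed by 0.06 (SE 0.10) for Mrps18b and -0.01 (SE 0.12) for Mrps18c. The other member of the large subunit that bears an Mrps name, Mrps30, differed by 0.02 (SE 0.08).

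Mrps36, the subunit of the 2-oxoglutarate dehydrogenase complex, was measured near the dim end of the array, below the median probe set. Its levels were 3.32, 3.51 and 3.74 in HFM mice and 3.28, 3.38 and 3.53 in HFS mice. HFM1 was the highest of all, 3 HFM mice were above every HFS mouse and HFM5 lay low among the HFS mice. The difference was 0.14 (SE 0.07, limma p = 0.0454, adjusted p = 0.770, exact permutation p = 0.0297), and its second probe set gave 0.15 (SE 0.07, limma p = 0.0452). Leaving out any 1 of 10 of the mice raised the p above 0.05, up to 0.112 without HFM1. With Mrps18a, Mrps30 and Mrps36 set aside, 2 of the remaining 74 members had an unadjusted p under 0.05, Mrpl9 and Mrps9.

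The next members in either direction did not pass an unadjusted p of 0.05. Mrpl34 had levels of 5.82, 6.12 and 6.18 in HFM mice and 5.68, 5.92 and 6.05 in HFS mice, a difference of 0.16 (SE 0.08, limma p = 0.0559, exact permutation p = 0.0653). Mrpl2, which lies beside the peptidyl transferase centre, had 6.23, 6.43 and 6.82 against 6.09, 6.32 and 6.42, a difference of 0.16 (SE 0.09, limma p = 0.0804, exact permutation p = 0.0956). Mrps33, a small subunit protein with no bacterial counterpart, had 6.10, 6.33 and 6.67 against 5.99, 6.14 and 6.42, a difference of 0.17 (SE 0.09, limma p = 0.0729, exact permutation p = 0.0932). In Mrpl2 and Mrps33 the highest value was again that of HFM3, and in all 3 genes the groups overlapped. On the lower side, Mrpl14, the protein of the subunit interface to which the assembly factor Malsu1 binds, had 6.00, 6.34 and 6.54 in HFM mice and 6.24, 6.44 and 6.73 in HFS mice. Its difference was -0.13 (SE 0.08, limma p = 0.140, exact permutation p = 0.165), and Mrpl36 and Mrpl23 had differences of -0.14 (SE 0.10) and -0.13 (SE 0.10).

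Mrpl47, the counterpart of a bacterial protein at the exit of the tunnel, had a pair of probe sets that both lay lower in HFM mice. In the brighter set the levels were 4.42, 4.89 and 5.04 in HFM mice and 4.75, 4.95 and 5.18 in HFS mice. The HFM mice were spread wide, with HFM1, HFM3 and HFM5 below every HFS mouse and the other 4 inside the HFS range. The difference was -0.18 (SE 0.09, limma p = 0.0700, exact permutation p = 0.0927) in the brighter set and -0.24 (SE 0.08, limma p = 0.00769, adjusted p = 0.714, exact permutation p = 0.00932) in the dimmer one. Among the other genes with a pair, Mrpl23, Mrps33, Mrps36 and Mrps5 had the same sign in both sets. The signs differed in Mrpl27 (0.12, SE 0.10, and -0.00, SE 0.10), in Mrpl41 (0.06, SE 0.12, and -0.08, SE 0.07) and in Mrpl51 (-0.08, SE 0.11, and 0.04, SE 0.11), and each of these 95% intervals included 0.

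**Figure D2:**
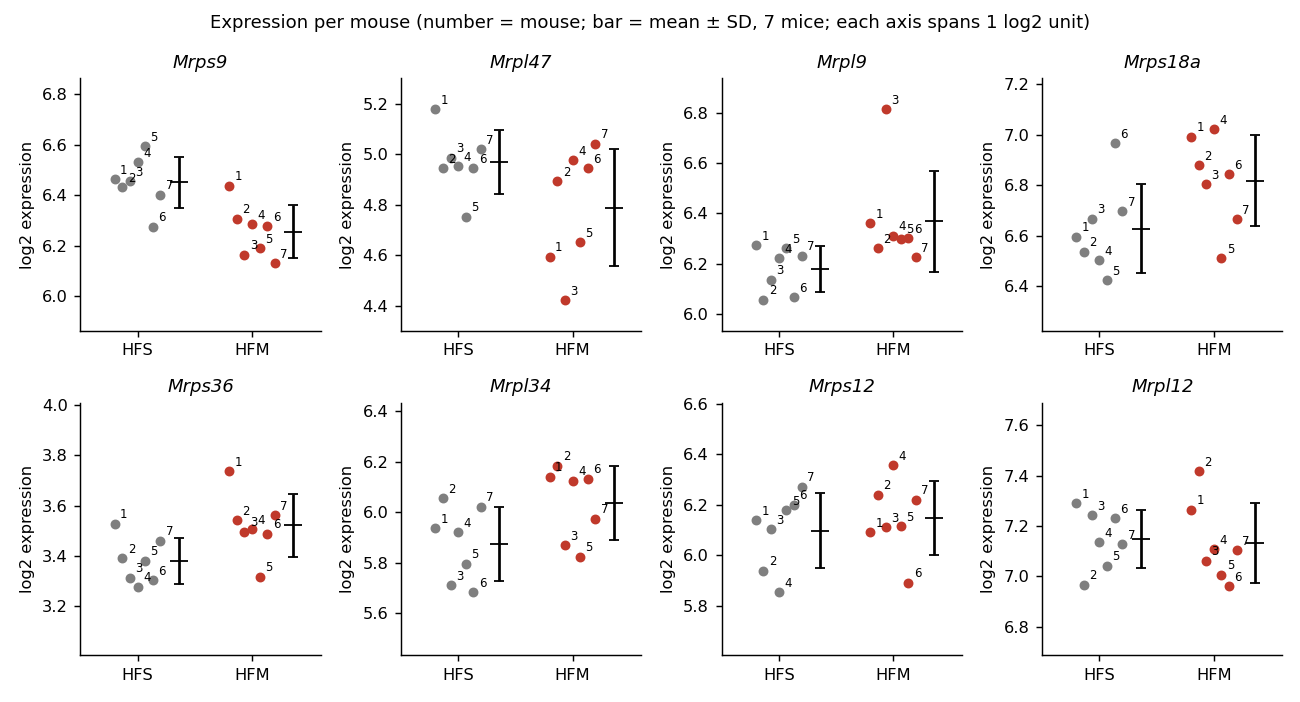
Level per mouse (y axis, log2 expression, each panel spanning 1 unit) of 8 members in HFS (grey) and HFM (red) mice, numbered by mouse, with the mean ± SD of 7 mice. Mrps9, Mrpl9, Mrps18a and Mrps36 had an unadjusted p under 0.05, Mrpl47 and Mrpl34 came next, and Mrps12 and Mrpl12 lay level. The groups overlap in every panel, and HFM3 stands alone at 6.81 in Mrpl9.

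Members of known interest lay level within these errors. Mrps12, whose bacterial counterpart sits at the decoding centre and is a site of streptomycin resistance, had levels of 5.89, 6.11 and 6.36 in HFM mice and 5.85, 6.14 and 6.27 in HFS mice. Mrpl12, a protein of the stalk that also binds the mitochondrial RNA polymerase, had 6.96, 7.10 and 7.42 against 6.97, 7.14 and 7.29. In both genes the groups covered almost the same range. The differences were 0.05 (SE 0.08) for Mrps12 and -0.02 (SE 0.08) for Mrpl12, with 95% intervals of -0.12 to 0.21 and -0.18 to 0.14. Mrpl37 varied least between mice within a group (SD 0.05) and Mrps26 most (SD 0.30). In Mrpl37 the mice lay between 6.41 and 6.59, whereas in Mrps26 they lay between 5.02 and 5.93, with the lowest mouse of each group, HFM6 and HFS5, set well below the next.

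Mutations of 13 of the members are known to cause mitochondrial disease in people, mostly with loss of respiratory chain activity. Among these 8 had a mean above 0 (61.5%) and 5 below, beside 66.2% of all members and 61.0% of other genes of like brightness above 0. At an unadjusted p under 0.05 there were 0 of the 13, where 6.47% of all probe sets passed. The widest differences were 0.11 (SE 0.07) in Mrpl3, -0.10 (SE 0.10) in Mrps25, -0.09 (SE 0.07) in Mrps14 and 0.09 (SE 0.08) in Mrps34. Mrps22, Mrps2, Mrpl44, Mrps16 and Mrps28 all lay between -0.00 and 0.03. No interval in this group went beyond -0.32 to 0.26.

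Grouped by place in the ribosome, the classes had median differences of 0.01 to 0.08. The counts above 0 stand beside 66.2% of all members and 61.0% of other genes of like brightness that lay above 0. Of the 3 stalk proteins, which recruit the translation factors, 2 were above 0 with a median of 0.07 (Mrpl11 0.11, SE 0.09, and Mrpl10 0.07, SE 0.07). All 6 members of the central protuberance, which touches the small subunit and binds a structural tRNA, lay above 0. They ran from 0.01 in Mrpl40 to 0.12 in Mrpl27 with a median of 0.08, and 0 passed an unadjusted p of 0.05. The dimmer probe set of Mrpl27 lay at -0.00, so the count and the top of the range depend on the probe set used. Around the exit tunnel 4 of 6 lay above 0, from -0.18 in Mrpl47 to 0.15 in Mrpl17, with a median of 0.02. Large subunit proteins with a bacterial counterpart lay above 0 in 17 of 30 genes (median 0.04), and those found only in mitochondria in 15 of 18 (median 0.03). In the small subunit the counts were 8 of 15 (median 0.01) and 8 of 11 (median 0.05). The 11 include Mrps18b, which was placed there although it is a paralogue of bacterial S18. Unadjusted p values under 0.05 were found for Mrpl9 in the first of these 4 classes, for Mrps9 in the third and for none of the others.

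The values of large and small subunit genes overlapped. Of the Mrpl genes 32 were above 0 and 16 below, with a median difference of 0.04, and of the Mrps genes 19 were above and 10 below, with a median of 0.02. The Mrps median was -0.00 without HFS2, 0.04 without HFM5, -0.01 with array weights and 0.04 after centring each array on its median. Averaged over its genes in each mouse, the large subunit had a level of 6.15 ± 0.07 in HFM and 6.12 ± 0.05 in HFS mice (SD, n = 7), and the small subunit 6.09 ± 0.07 and 6.06 ± 0.06. The large minus small difference per mouse was 0.06 ± 0.05 in HFM mice (range -0.03 in HFM7 to 0.11 in HFM4) and 0.05 ± 0.03 in HFS mice (range 0.01 to 0.10). The groups covered one another, and the means were 0.005 apart, less than the spread between mice. The sign was not stable, the value being -0.0038 without HFM4 and 0.019 without HFM7, and 0.018 with the subunits set by structure. Because probes differ, the size of the large minus small value says nothing of the amounts of the subunits.

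**Figure D3:**
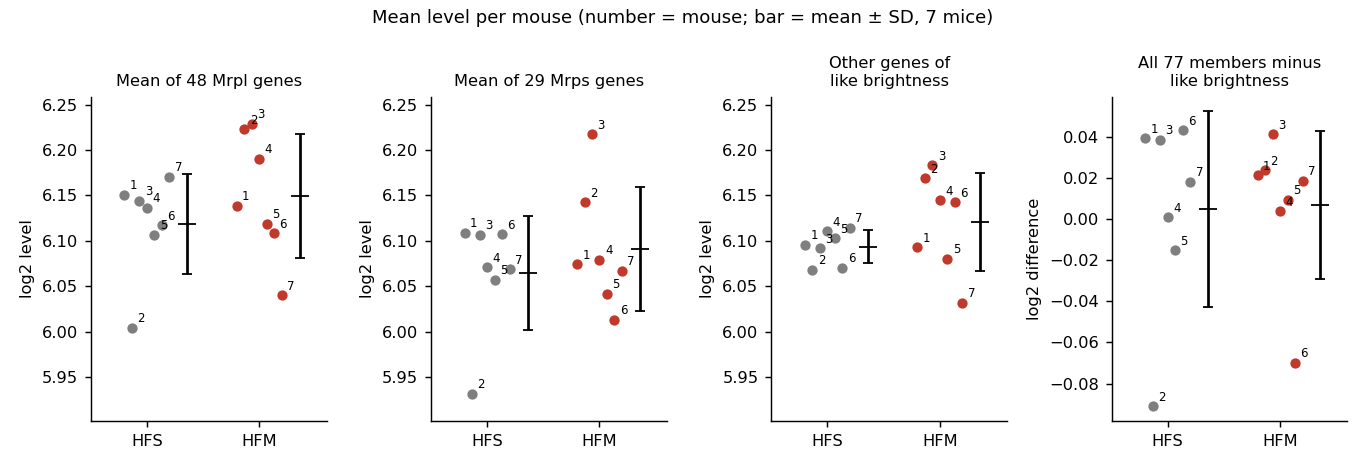
Mean log2 level per mouse over the 48 Mrpl genes, the 29 Mrps genes and other genes of like brightness, and the difference between all 77 members and those genes (y axes, log2), for HFS (grey) and HFM (red) mice numbered 1 to 7, with the mean ± SD. HFS2 lies lowest of the 14 mice in both subunits, and the group means differ by 0.03 in the first 3 panels.

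The means leaned on a pair of mice. HFS2 had the lowest mean over all 77 members (5.98, where the other HFS mice had 6.09 to 6.13) and was the lowest of the 14 mice in 23 of the 77 members, although it was lowest in only 7.97% of all probe sets. HFM3 had the highest mean (6.22) and was the highest mouse in 25 members, beside 18.6% of all probe sets. In other genes of like brightness HFS2 stood at 6.07, close to the other HFS mice, so that its members lay 0.09 below like genes. HFM6 lay 0.07 below them, and the remaining 12 mice lay between 0.02 below and 0.04 above. Without HFS2 the median difference of the members was 0.02 and 42 of them were above 0.

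The lean toward positive values was shared with genes of like brightness. Over all members 51 were above 0 and 26 below (66.2% above), with a median difference of 0.03, while the median over all probe sets was 0.00. Of the members 73 were brighter than the median probe set, and bright probe sets leaned higher in HFM mice in general. Among other genes with mean levels of 6 to 7, 67.8% were above 0 (median 0.04), and among those of 4 to 5 only 36.9% were (median -0.03). Weighted to the brightness of the members, 61.0% of other genes were above 0, with a median of 0.03, and 6.97% had an unadjusted p under 0.05, against 5.19% of the members. Per mouse, members minus like genes came to 0.01 ± 0.04 in HFM and 0.00 ± 0.05 in HFS mice, 0.002 apart. The spread between mice was close to that of like genes too, with a median SD of 0.154 for members and 0.168 for the others.

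That lean moved with the scaling of the arrays. The upper quartile of an array was 6.01 ± 0.07 in HFM and 5.97 ± 0.02 in HFS mice, lowest in HFM7 and highest (6.10) in HFM3. After quantile normalization, which makes the arrays alike in this respect, 39 of the 77 members were above 0 (50.6%) beside 52.4% of like genes, and the median of the members was 0.00. After centring each array on its median, 63 were above 0 (81.8%) beside 70.7%, and the median was 0.06. Among all probe sets with an unadjusted p under 0.05, the share that was higher was 55.2% as deposited, 53.7% after quantile normalization and 76.1% after centring.

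**Figure D4:**
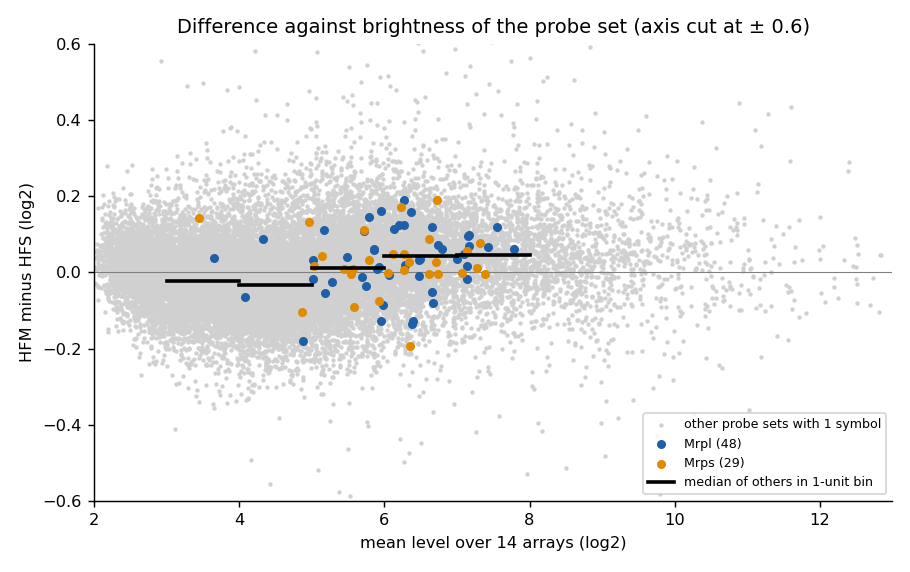
Difference between HFM and HFS livers (y axis, log2) against the mean level of the probe set over 14 arrays (x axis, log2), for Mrpl (blue) and Mrps (orange) genes and for other probe sets with 1 symbol (grey), with black bars at the median of the other genes in each 1-unit bin. The black bars rise from below 0 at levels of 3 to 5 to 0.04 and 0.05 at levels of 6 to 8, where most members lie.

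Other genes of mitochondrial translation also had differences close to 0. The 5 measured ribosomal proteins that bear other names all lay above 0, as did 66.2% of the members. They ran from 0.04 in Gadd45gip1 to 0.17 in Chchd1 (SE 0.09, limma p = 0.0765, exact permutation p = 0.103), and 0 had an unadjusted p under 0.05. Of 28 assembly factors 1 was lower at that threshold (3.57%, where 2.9% of all probe sets were lower), Malsu1, which keeps the subunits apart during assembly. Its level was 5.89 ± 0.22 in HFM and 6.08 ± 0.07 in HFS mice (SD, n = 7), a difference of -0.20 (SE 0.09, limma p = 0.0334, adjusted p = 0.770, exact permutation p = 0.0443). Next in that list came Mterf4, at 0.16 (SE 0.08, limma p = 0.0552, exact permutation p = 0.0664), and the median of the list was 0.01.

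None of the 15 translation factors and none of the 19 aminoacyl-tRNA synthetases and related enzymes had an unadjusted p under 0.05, where 6.47% of all probe sets did. The medians were 0.04 and 0.05. The elongation factor Tsfm lay at -0.12 (SE 0.07) and the release factor Mtrf1 at 0.13 (SE 0.10), while Fars2, which charges the phenylalanine tRNA, lay at 0.15 (SE 0.08). Of 16 genes for copying and transcribing mitochondrial DNA 1 was higher (6.25%, where 3.57% of all probe sets were). It was the elongation factor of mitochondrial transcription Tefm, at 0.17 (SE 0.08, limma p = 0.0446, adjusted p = 0.770, exact permutation p = 0.0513). Of the 9 regulators of mitochondrial biogenesis 4 lay above 0 and 0 passed, among them Ppargc1a at 0.16 (SE 0.14), Pprc1 at -0.17 (SE 0.09) and Nrf1, the factor of the core searched above, at -0.14 (SE 0.08).

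Families of like function had medians close to that of the members. Of 81 nuclear genes of respiratory chain and ATP synthase subunits 60 lay above 0 (74.1%), with a median of 0.05. Their median level was 8.14, and among other genes with levels of 7 to 8, 69.2% lay above 0. At an unadjusted p under 0.05, 7 were higher and 1 was lower (9.88%, where 6.47% of all probe sets passed in either direction). None passed the adjusted threshold. Atp5g1, a gene for the ring subunit of ATP synthase, had the smallest p of these, at 9.88 ± 0.14 in HFM and 9.63 ± 0.10 in HFS mice (difference 0.25, SE 0.07, limma p = 0.00193, adjusted p = 0.714, exact permutation p = 0.00408). Of 62 genes picked by a symbol of the cytosolic ribosomal protein type, 39 lay above 0 with a median of 0.03. The symbol rule also took in genes only named after such a protein, Rps19bp1 and Rps23rg1. At an unadjusted p under 0.05, 2 of the 62 were higher (3.23%, where 3.57% of all probe sets were). They were Rps15 at 0.29 (SE 0.12) and Rpl41 at 0.19 (SE 0.09). A difference between these families and the mitochondrial ribosomal proteins was not tested.

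**Figure D5:**
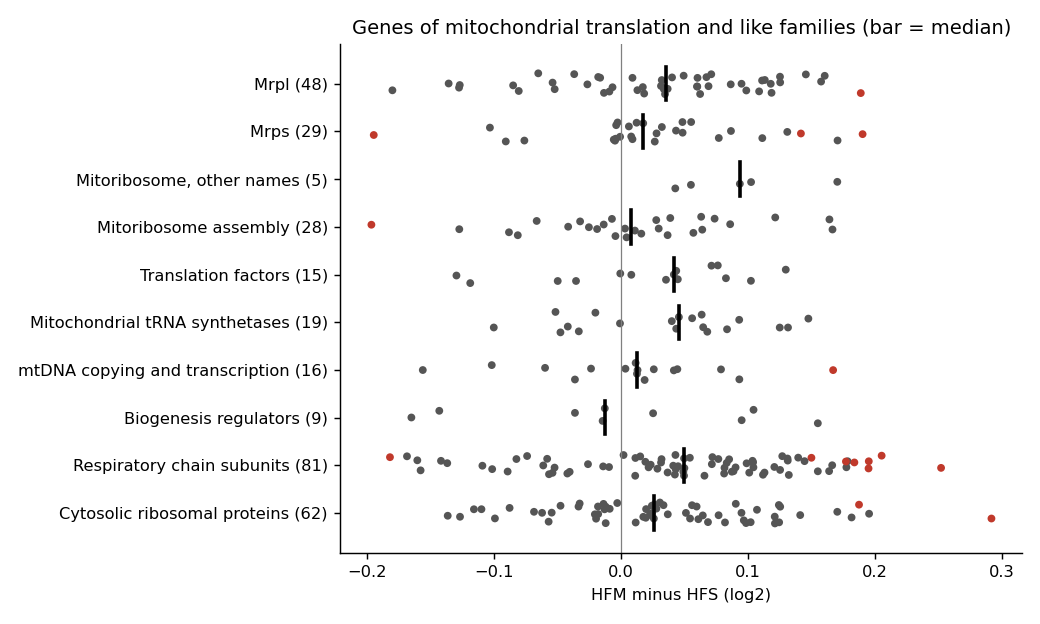
Difference between HFM and HFS livers (x axis, log2) for each gene of 10 groups, with the number of genes in brackets, black bars at the median and red points for an unadjusted p under 0.05. All medians lie between -0.01 and 0.09, and the red points number 4 in the mitochondrial ribosomal proteins (Mrpl and Mrps) and 8 in the respiratory chain.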

How the data were processed

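Total RNA from the livers of 14 mice was hybridized by the authors to Affymetrix Mouse Gene 1.0 ST arrays, 1 mouse per array, after 1 sample per group was damaged in transit. In Affymetrix Expression Console the authors summarized and normalized the intensities, and what they deposited is on the log2 scale with 1 value for each probe set. The submitters' processing notes name RMA for this step and the study's methods name PLIER. Neither versions nor the genome build of the probes are given in the sources used here. Array medians ran from 4.59 to 4.69 over named probe sets, and every value column was used (0 left out). The number of arrays, 7 per group, limits the precision.

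Gene symbols came from the platform annotation. Of the probe sets 23410 had a symbol and were tested, 21789 of them with exactly 1 symbol and 1621 with several, and 12146 without a symbol were left out. Differences are HFM minus HFS from limma 3.58.1 (lmFit and eBayes, R 4.3.3) with no covariate and no filter on signal, with Benjamini-Hochberg adjustment over all 23410. Exact permutation tests of single genes were two-sided over 3432 assignments of the mice. The smallest p that such a test can give is 0.000583. Genes of like brightness were the other genes in the same bins of 1 log2 unit of mean level, weighted to the members. Lists were described by counts and medians, without a test.

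The members and lists were chosen with earlier results of these data known. The genes named are the 6 members with the smallest p among higher and the 6 among lower ones, those with the highest and lowest level in each subunit and the widest and narrowest spread, members of known interest, the first genes of each list, and the few behind a small count. Alternatives tried were a block for the replicate number, quantile normalization, centring on the median, only probe sets brighter than the median, weights for arrays, a trended and robust prior, an unmoderated test, all probe sets, the mean of the probe sets of a gene, subunits by structure and each mouse left out. The dimmer probe set of genes with a pair was added after the data were seen. Promoters were read from the RefSeq table of GRCm38.p6. The limma and permutation steps were tested on simulated data.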

Additional observations from a re-analysis of the deposited data

Results flagged for a closer look

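The 74 groups of 7 mice searched were those of the 33 named members and of values averaged over the 77 members or a subunit. In 10 of them 1 mouse was set far from the others, the gap to the next mouse taking more than 0.568 of the whole range (Dixon's test). Among independent groups chance gives about 5%. These groups share the same mice, some members were picked from these data, and the means share genes. The count of 10 is therefore not read against that 5%. HFM3 stood high in Mrpl9 (6.81, next 6.36), Mrps14 (5.73, next 5.55) and Mrps18b (7.50, next 7.21). HFS2 stood low in Mrps18c (6.14, next 6.61) and Mrps22 (5.84, next 6.27), as well as in the mean over all members (5.98, next 6.09), over the large subunit (6.00, next 6.11) and over the small subunit (5.93, next 6.06). HFM6 stood low in Mrpl14 (6.00, next 6.32), and HFS7 stood high in Mrpl23 (6.26, next 6.02).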

How the results depend on the processing

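The count of 0 members past an adjusted p of 0.05 held in every setting tried. The 4 members past an unadjusted p of 0.05 became 6 after centring each array on its median and 7 with array weights. Among probe sets brighter than the median 73 members were measured and 2 passed. Mrps36 was not tested there, and Mrps18a had a limma p of 0.0549. The 3 higher members became 2 after quantile normalization, with a trended and robust prior, with an unmoderated test or over all probe sets. They became 5 after centring, 1 among the brighter and 6 with array weights. The 1 lower one became 2, with Mrpl47, in the mean of the probe sets of a gene and in the dimmer probe set. Probe sets past that threshold, 1514 of 23410, were 749 among the brighter. That setting tested only the probe sets brighter than the median, so these 2 counts are of unlike totals. With each mouse left out, the members past it were 1 to 7, the higher 0 to 6 and the lower 1 to 2, probe sets past it were 1082 to 2465 (the highest without HFM7) and probe sets past an adjusted p were 0 to 1 (1 without HFS6). The median difference of the Mrps genes (0.018) ran from -0.0028 without HFS2 to 0.040 without HFM5, and over the other settings from -0.00805 with array weights to 0.045 after centring. The large minus small difference between groups (0.0048) ran from -0.0038 without HFM4 to 0.019 without HFM7, and from -0.00079 with the dimmer probe set to 0.018 with the subunits set by structure.

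Signs turned in members close to 0. After quantile normalization Mrpl37 (-0.0024), Mrps16 (-0.033), Mrps2 (-0.0101), Mrps22 (-0.0041) and Mrps26 (-0.0055) turned, after centring Mrpl12 (0.011), Mrps15 (0.023), Mrps18c (0.022) and Mrps28 (0.027), and with array weights Mrps18b (-0.00805), Mrps22 (-0.0078), Mrps26 (-0.047) and Mrps30 (-0.022). With each mouse left out, the difference ran from -0.064 to 0.012 in Mrpl12, -0.024 to 0.104 in Mrpl22, -0.019 to 0.058 in Mrpl44, -0.0022 to 0.053 in Mrps2, -0.033 to 0.021 in Mrps15, -0.028 to 0.0498 in Mrps16, -0.085 to 0.04995 in Mrps18c, -0.054 to 0.062 in Mrps22, -0.082 to 0.097 in Mrps26, -0.032 to 0.044 in Mrps28 and -0.036 to 0.049 in Mrps30. The causes were not tested.

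Mice of the same number in the 2 groups deviated together with correlations of -0.20 to 0.14, and 0 of 7 mice correlated best with its own number, so the numbers were not taken as pairs. With the replicate number as a block, 5 members passed an unadjusted p of 0.05, 4 of them higher. With the subunits set by structure, the median of the Mrps genes was 0.01. Leaving out pseudogene symbols changed nothing, since no member has one. Probe sets near the dim end, such as those of Mrps36 and Mrpl22, lie where background limits what an array can show.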
